A study of Mus musculus with 12 samples.

Results

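The transcripts described here are the mature RNAs of 10000 bases or more that were clearly expressed in mouse embryonic stem cells (ESC) or in neural progenitor cells (NPC) derived from them. Of 55419 transcripts in the deposited tables, 423 reach that length. A transcript was taken when its mean TPM (a level scaled by transcript length and by library) over all 12 libraries was at least 1. It was left out when it lay in 1 of 7 stretches of rows, or was among the 50 transcripts holding the largest share of counts. Earlier work on these same data had set the stretches aside because their levels were shifted in cells with altered Chd8. Of the 423, 183 fell under the TPM limit, 41 lay in the stretches, and none was among the top 50, which left 199 members.

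The ESC were grown in 2i, a medium with kinase inhibitors that favours naive pluripotency, and the NPC were differentiated. Both cell types were wild-type (WT), CHD8+/- (labelled CHD8_HET, here HET) or CHD8-/- (labelled CHD8_KO, here KO), and each of the 6 groups had 2 RNA-seq libraries. The kind of Chd8 alteration, the number of lines per genotype and the origin of the libraries of a group (separate cultures or one) are not stated, so a p-value here reflects only library-to-library spread, possibly technical. Depth was 9062447 to 14766212 estimated counts. The genotype and cell type labels were not checked against Chd8 or marker genes. Only the 199 members were looked up in the name tables used here, and none matched. The files themselves do not pair their UCSC-style identifiers with gene names. For the same reason no gene role, sequence or position in the genome is given, and at most 2 identifiers are printed per direction and comparison.

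CHD8 is an ATP-dependent chromatin remodeller of the chromodomain helicase family, and loss of 1 copy of the human gene is a known cause of a form of autism. Mature transcripts of this length usually encode giant proteins, such as cytoskeletal linkers, large adhesion receptors and large chromatin or ubiquitin enzymes, or carry very long 3′ untranslated regions. Neural cells are known for using longer 3′ ends than most other cells. A long transcript is not the same as a long gene, since introns are not part of the length used here.

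The members ran from 10000 to 83437 bases with a median of 11390. By length, 80 members were under 11000 bases, 40 were from 11000 to under 12000, 46 from 12000 to under 15000, 28 from 15000 to under 20000 and 5 longer still. Their mean TPM had a median of 7.003 and ran from 1.01 to 115. Shorter transcripts that met the same TPM limit and exclusions numbered 17983, with a median length of 2542 bases and a median TPM of 5.51. At the length limit, the shortest members had 10000, 10005 and 10029 bases and the longest transcripts left out had 9981, 9977 and 9966. At the TPM limit, the lowest members had 1.01, 1.06 and 1.10 TPM and the highest long transcripts left out had 0.984, 0.978 and 0.956.

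Length makes these transcripts well sampled. A member had a median of 634 estimated counts per library, against 97 for a shorter transcript. All 199 members were tested, and 193 had counts in every library. The limit is on the mean over both cell types, so 170 members reached 1 TPM on average in ESC and in NPC, 26 in NPC alone and 3 in ESC alone. Those 29 had to differ in level between the cell types to some degree, so the comparison of NPC with ESC is also given without them. The median SD between replicates (log2 CPM, pooled over the 6 groups, n = 2 in each) was 0.25 for the members and 0.39 for shorter transcripts of equal TPM. It was 0.23 for shorter transcripts of equal CPM (counts scaled by library alone, not by length), so at equal reads the members were no less variable.

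Members were not all independent of each other. Of the 199, 79 lay within 10 rows of another member, in 35 runs of at most 4. Counts of transcripts in neighbouring rows may share reads, because a read that is compatible with several transcripts is divided among them, and the files do not say which rows belong to 1 gene. With 1 member counted per run, 155 remained.

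Long transcripts took a larger part of the RNA in NPC than in ESC. They held 1.53% ± 0.153 of all counts in ESC and 2.36% ± 0.193 in NPC (SD, n = 6 libraries over the 3 genotypes). In WT ESC the shares were 1.56% and 1.69%, in HET ESC 1.44% and 1.45%, and in KO ESC 1.70% and 1.32%. In WT NPC they were 2.49% and 2.51%, in HET NPC 2.07% and 2.33%, and in KO NPC 2.56% and 2.21%. Every NPC library lay above every ESC library, and within NPC both HET libraries lay below both WT libraries. On the TPM scale the median member stood between 3.96 and 4.94 in the ESC libraries and between 7.72 and 10.4 in the NPC libraries.

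The most abundant transcripts moved the other way. The 50 transcripts of highest share held 35.1% to 46.4% of the counts of ESC libraries and 23.5% to 31.4% of NPC libraries, which alone leaves more of an NPC library for all other RNAs. Without those 50, the members held 2.26% to 2.66% of the remaining counts in ESC and 3.02% to 3.40% in NPC, so the cell types still did not overlap. The mean fragment length, read from the effective lengths, was 172 to 182 bases in ESC libraries and 166 to 181 in NPC libraries and did not separate the cell types. Within NPC it did separate the genotypes, at 166 and 169 bases in HET, 173 and 175 in WT, and 181 and 180 in KO. In bulk RNA, more cells that express a transcript and more of it per cell cannot be told apart.

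A measure that does not depend on library scaling set the members against shorter transcripts of equal abundance. Shorter transcripts were divided into 5 strata of mean TPM (1 to 2, 2 to 5, 5 to 10, 10 to 20, and 20 or more), and their stratum medians were weighted by the number of members in each. The offset of a library is the median deviation of the members from their own mean over the 12 libraries, minus the same for the shorter transcripts, in log2 CPM. It was -0.21 and -0.13 in WT ESC, -0.37 and -0.22 in HET ESC, and -0.28 and -0.15 in KO ESC, listed from the lower library of each pair. It was 0.23 and 0.25 in WT NPC, 0.08 and 0.21 in HET NPC, and 0.15 and 0.29 in KO NPC. All 6 ESC libraries thus lay below 0 and all 6 NPC libraries above it, and their means were -0.23 ± 0.088 and 0.20 ± 0.074 (SD, n = 6). The spread between replicates of a group, pooled over groups, was an SD of 0.0825.

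**Figure D1:**
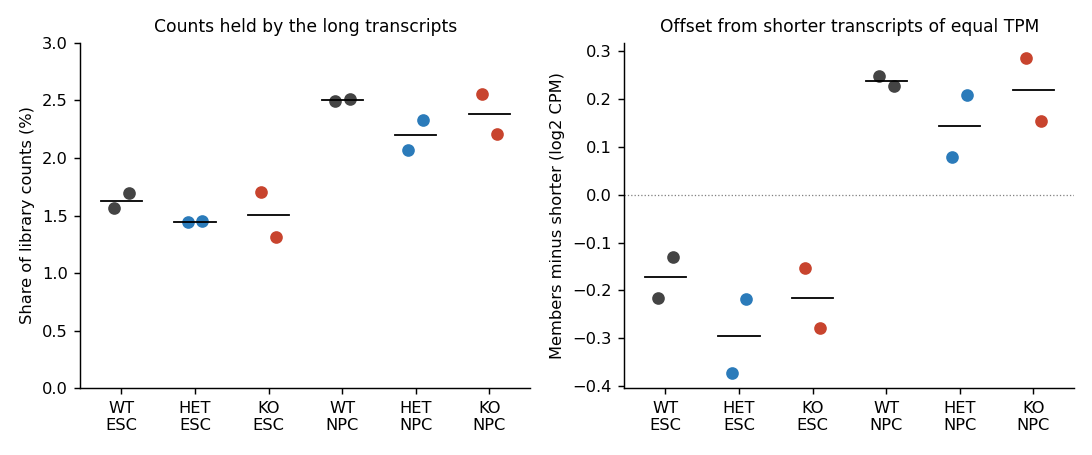
Left, percent of each library's estimated counts held by the 199 long transcripts; right, their median offset from shorter transcripts of equal TPM in log2 CPM. Points are libraries, lines are means of 2, and in both panels every NPC library lies above every ESC library (1.32% to 1.70% against 2.07% to 2.56% on the left).

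Over the 3 genotypes, 92 of the 199 members were higher in NPC and 22 lower (edgeR quasi-likelihood test, adjusted p under 0.05). Over all 30021 transcripts tested, 15.5% were higher and 14.8% lower (30.2% in either direction). The members were thus called higher at 46.2% and lower at 11.1%. At equal CPM, where the test has similar reads to work with, 23.5% of shorter transcripts were called higher and 29.0% lower. The share of members called in either direction, 57.3%, was close to the 52.5% of those shorter transcripts, so the members stood out by direction more than by number. No test of members against shorter transcripts was made, and these shares are descriptive. Among the 170 members at 1 TPM or more in both cell types, 71 were called higher (41.8%) and 21 lower (12.4%). Their median log2 fold change was 0.28, which was 0.35 above that of shorter transcripts that met the same limit. Limma on deposited TPM, with no scaling between libraries, called 130 members higher and 8 lower (69.3%, against 39.9% of all tested transcripts). Of its calls for members 94.2% were higher, against 80.7% by edgeR. It also moved the median of all tested transcripts to 0.36, with only 27.4% of them below 0.

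The sizes and overlaps that follow are over all 199 members, with the 26 that met the TPM limit through NPC alone. The members called higher had a median rise of 2.27-fold, and 52 of the 92 rose more than 2-fold and 26 more than 4-fold. The members called lower had a median fall of 1.63-fold, and 8 of the 22 fell more than 2-fold. The levels of ESC and NPC did not overlap for 79 members, of which 65 had all 6 NPC libraries above all 6 ESC libraries and 14 had them below. That is 39.7% of members, against 31.3% of shorter transcripts of equal CPM and 17.9% of all tested transcripts. The median log2 fold change over all members was 0.37 (quartiles -0.15 and 1.14), a 1.29-fold rise, against -0.004 for shorter transcripts of equal TPM and 0.02 for all tested. A log2 fold change above 0 was found for 141 of 199 members (70.9%), where 49.1% of shorter transcripts of equal TPM and 50.9% of all tested transcripts had one.

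**Figure D2:**
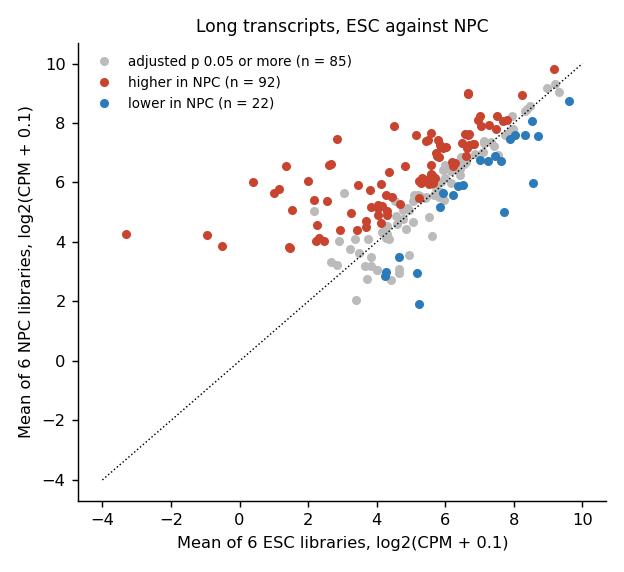
Mean level of each of the 199 long transcripts in the 6 ESC libraries (horizontal) and the 6 NPC libraries (vertical), as log2(CPM + 0.1). Colours give the edgeR call at an adjusted p of 0.05 (92 higher, 22 lower, 85 neither) and the dotted line marks equal levels; most points off the line lie above it.

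The rise appeared in each genotype, and these 3 comparisons share no library. In WT, 65 members were higher in NPC and 4 lower (32.7% and 2.01%, edgeR, adjusted p under 0.05), against 6.83% and 5.33% of all tested transcripts. In HET, 66 were higher and 8 lower (33.2% and 4.02%), against 6.3% and 5.16%. In KO, 59 were higher and 8 lower (29.6% and 4.02%), against 6.59% and 6.42%. Shorter transcripts of equal CPM were called higher and lower at 13.2% and 14.0% in WT, 11.3% and 13.1% in HET, and 12.5% and 13.5% in KO. No such matched share is given for the members in the next 2 sentences. Of the 170 members at 1 TPM or more in both cell types, 48 were higher and 4 lower in WT (28.2% and 2.35%). In HET 48 of the 170 were higher and 8 lower (28.2% and 4.71%), and in KO 41 and 8 (24.1% and 4.71%). The median log2 fold change of all 199 members was 0.40 in WT, 0.41 in HET and 0.31 in KO. The offset from shorter transcripts of equal TPM was 0.39, 0.42 and 0.32. For the 170, against shorter transcripts that met the same limit, it was 0.35, 0.39 and 0.34. Over all 199 members, 47 were called higher and 4 lower in all 3 genotypes, and none was called in opposite directions in a pair of genotypes. The KO calls in either direction, 67 in all, dropped to 39 without KO NPC replicate 1 and to 42 without KO ESC replicate 2. The 69 WT calls dropped to 46 without WT NPC replicate 2.

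The direction held in every abundance stratum, though unevenly. Members of 1 to 2 TPM stood 0.07 above shorter transcripts of the same stratum in median log2 fold change over the genotypes (29 members), but 0.14 above in WT, 0.70 in HET and 0.41 in KO. Those of 2 to 5 TPM stood 0.50 above (49 members), those of 5 to 10 TPM 0.35 (46 members) and those of 10 to 20 TPM 0.56 (42 members). The 33 members of 20 TPM or more stood 0.26 above. In that highest stratum 11 members were called higher and 7 lower, which is 54.5% of members, near the 53.2% of its shorter transcripts called. At 10 to 20 TPM 27 were called higher and 5 lower, 76.2% of members against 49.0% of shorter transcripts. Within a TPM stratum the members have more reads than the shorter transcripts, so these shares called are not matched for reads.

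The limit of 10000 bases did not mark a step. At equal TPM the median log2 fold change between NPC and ESC was -0.22 for transcripts of 300 to under 1000 bases and -0.13 for those of 1000 to under 2000. It was 0.01 at 2000 to under 4000 bases, 0.18 at 4000 to under 6000, 0.34 at 6000 to under 8000 and 0.29 at 8000 to under 10000, beside 0.37 for the members. The shares called by edgeR in these classes were matched neither for TPM nor for reads, and at a given TPM longer transcripts have more reads. The share called higher went from 7.48% in the shortest class to 40.2% at 8000 to under 10000 bases and 46.2% in the members. The share called lower went from 24.2% to 12.6% and 11.1%. At equal CPM 23.5% of all shorter transcripts were called higher and 29.0% lower. By median the members lay at the upper end of a gradient with length, near transcripts of 6000 to under 10000 bases. Among the members the median was 0.36 at 10000 to under 11000 bases, 0.36 at 11000 to under 12000, 0.41 at 12000 to under 15000 and 0.48 at 15000 to under 20000. The 5 longest, of 20000 bases or more, had a median of 0.06, with 1 called higher and 1 lower.

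**Figure D3:**
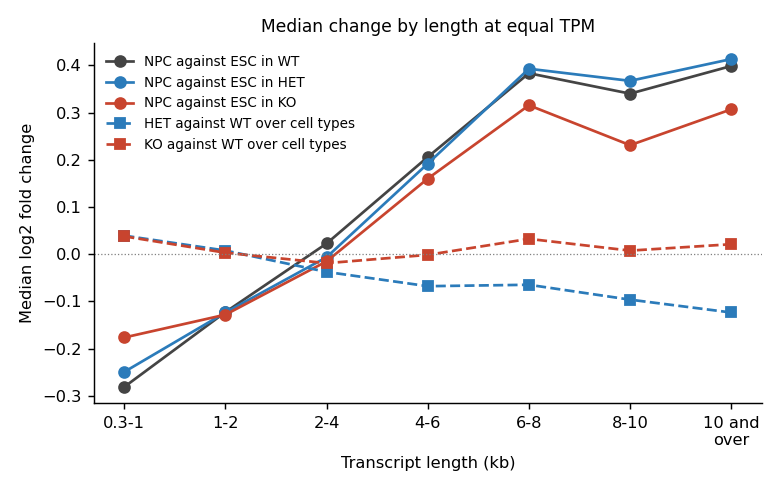
Median log2 fold change by transcript length in kb, at equal TPM, for NPC against ESC in each genotype (circles) and for HET and KO against WT over both cell types (squares). The NPC lines climb from the shortest class to 6 to 8 kb and then stay near that level up to the members at 10 kb and over, while the KO line stays near 0 and the HET line drops slowly to -0.12.

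Some members were found almost only in NPC. The 3 named here stood under 1 TPM in ESC and met the TPM limit through NPC, so their values are given as a description with no test. uc012dgb.1, of 11114 bases, had estimated counts that rounded to 0 in all 6 ESC libraries. In NPC it had 15.6 and 27.98 CPM in WT, 5.84 and 21.1 in HET, and 36.1 and 8.07 in KO. The mean of 19.1 ± 11.7 CPM (SD, n = 6) was at least 422-fold higher in NPC than a floor of 3 counts over the ESC libraries. Its level varied more than 3-fold between replicates of HET and of KO.

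uc011zwi.1, of 17125 bases, had estimated counts that rounded to 0 in the 4 HET and KO ESC libraries and 0.949 and 10.5 CPM in the WT ESC libraries. In NPC it stood at 73.8 and 64.6 CPM in WT, 23.3 and 56.5 in HET, and 46.3 and 38.4 in KO. All 6 NPC libraries were above all ESC libraries (means 50.5 ± 18.4 and 1.92 ± 4.24 CPM, SD, n = 6). uc009qut.1, of 11659 bases, was below 1 CPM in the 4 WT and HET ESC libraries and at 3.39 and 1.13 CPM in KO ESC. It stood at 72.4 and 99.1 CPM in WT NPC, and its log2 fold change in WT was 6.99 (SE 0.50). In HET and KO NPC it lay between 48.5 and 60.5 CPM, below both WT NPC libraries.

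Fewer members were lower in NPC. uc011xfg.1, of 14082 bases, had 495 and 355 CPM in WT ESC, 426 and 303 in HET ESC, and 472 and 232 in KO ESC. In NPC every library lay between 52.2 and 79.7 CPM. Its log2 fold change was -2.67 in WT (SE 0.38), -2.54 in HET and -2.59 in KO (edgeR adjusted p = 0.00389, 0.00476 and 0.00406). uc008bub.1, of 14583 bases, had 78.4 and 167 CPM in WT ESC and between 179 and 301 in HET and KO ESC, against 15.0 to 47.9 in NPC. Its fall over the genotypes had a log2 fold change of -2.68 and an SE of 0.34 (edgeR adjusted p = 0.000725). It was -3.10 in HET and -3.43 in KO (edgeR adjusted p = 0.015 and 0.00979), and -1.505 in WT, where it was not called (adjusted p = 0.144). uc008izm.1, of 10970 bases, stood at 380 and 357 CPM in WT ESC and 211 and 183 in WT NPC, which gave a log2 fold change of -0.91 and an SE of 0.17 (edgeR adjusted p = 0.0134). On deposited TPM, limma gave it -0.39 (adjusted p = 0.315).

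Runs of members in neighbouring rows did not always move together. Of the 35 runs, 5 had 2 or more members called higher and none lower, 15 had exactly 1 member called and 3 had members called in opposite directions. These 3 were looked at after their values were seen. In the first, uc008huy.2 (10301 bases) and uc008huz.2 (10464 bases) lie in successive rows. uc008huz.2 had 29.4 to 53.8 CPM in ESC and 0 to 9.23 in NPC, with a log2 fold change of -3.78 (SE 0.78). It met the TPM limit through ESC, so no test is given. uc008huy.2 had 3.39 to 24.0 CPM in ESC and 43.2 to 72.5 in NPC, a log2 fold change of 2.68 and an SE of 0.20 (edgeR adjusted p = 4.47e-05). With a member in the following row added, their sum was 59.96 to 69.9 CPM in ESC and 59.8 to 82.7 in NPC, a log2 ratio of means of 0.16. uc008huz.2 was thus the larger in every ESC library and uc008huy.2 in every NPC library, while the range of the sum overlapped.

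In the second run, of members of 23495 and 17414 bases, the longer fell by 0.51 (SE 0.13) and the shorter rose by 1.18 (SE 0.21) on the log2 scale over the genotypes (edgeR adjusted p = 0.019 and 0.00343). The longer was at 280 and 284 CPM in WT NPC but at 87.4 to 142 in HET and KO NPC, while in ESC it was at 282 and 226 in WT, 138 and 181 in HET, and 289 and 297 in KO. The sum of the pair was 293 to 408 CPM in ESC and 385 to 524 in NPC. In the third run, uc011zwi.1 rose as given above while a member 3 rows before it fell by 0.68 (SE 0.19, edgeR adjusted p = 0.0306). The sum of the 3 members of that run was 49.7 to 78.2 CPM in ESC and 87.6 to 119 in NPC.

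**Figure D4:**
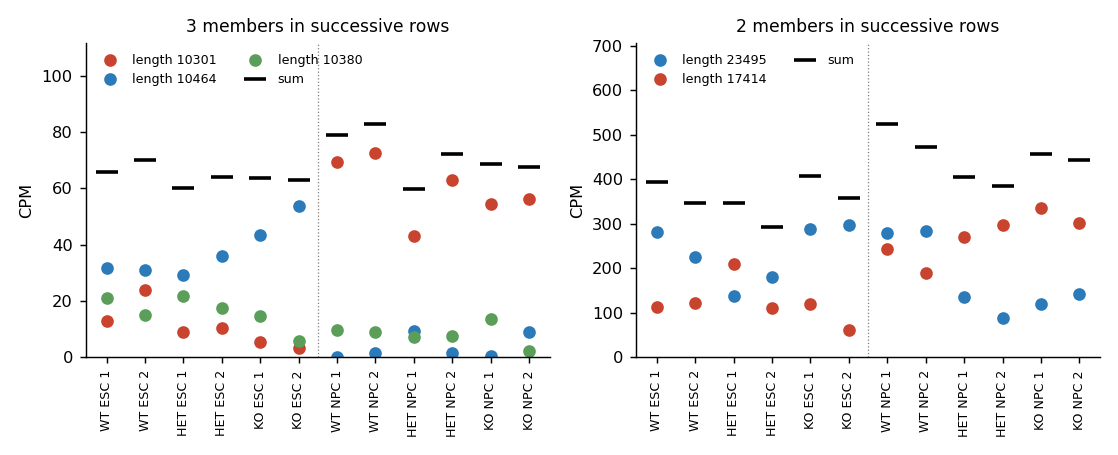
CPM in each of the 12 libraries for 2 runs of members in successive rows, with each member as coloured points and their sum as black bars; the dotted line parts ESC from NPC. On the left the members of 10301 and 10464 bases exchange places while the sum stays between 59.8 and 82.7 CPM, and on the right the member of 17414 bases exceeds that of 23495 bases in HET ESC replicate 1 and in all HET and KO NPC libraries.

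In cells with altered Chd8 the members as a whole stood near the level of WT. This holds outside the stretches, which had been picked for HET or KO shifts and held 41 more long transcripts of 1 TPM or more. Over both cell types the median log2 fold change of KO against WT was 0.02 (quartiles -0.25 and 0.27), and it was 0.02 above that of shorter transcripts of equal TPM. It was 0.02 in ESC and -0.02 in NPC. In HET the median was -0.12 over both cell types, -0.13 in ESC and -0.11 in NPC. Over both cell types 134 of 199 members (67.3%) were below 0, as were 51.1% of all tested transcripts. Shorter transcripts of equal TPM stood at -0.03, so the offset was -0.09 over both cell types, -0.11 in ESC and -0.08 in NPC. No test of this offset was made. It ran from -0.12 to -0.06 in ESC and from -0.15 to -0.04 in NPC when each library was left out. Its smallest sizes came without HET ESC replicate 1 (-0.06) and without HET NPC replicate 1 (-0.04), and its largest in NPC without WT NPC replicate 2 (-0.15). In the offsets per library given above, both HET libraries lay below both WT libraries in each cell type, in ESC by a margin of -0.217 against -0.215 for the nearest pair. At equal CPM the offset of HET was -0.14 in ESC, -0.09 in NPC and -0.12 over both cell types. The ESC libraries then overlapped, with HET ESC replicate 2 at -0.17 and WT ESC replicate 1 at -0.26. The HET NPC libraries (0.19 and 0.27) stayed below the WT NPC libraries (0.35 and 0.31). They also had shorter mean fragments, as given above, and the part of fragment length in their offset was not tested. Median log2 fold changes of HET over both cell types went down with length at equal TPM, though not at each step. They were 0.04 at 300 to under 1000 bases, 0.01 at 1000 to under 2000, -0.04 at 2000 to under 4000, -0.07 at 4000 to under 6000, -0.06 at 6000 to under 8000 and -0.10 at 8000 to under 10000. By abundance the offset was below 0 in every stratum in ESC and over both cell types, and in NPC in every stratum except 2 to 5 TPM. Its size followed no common order in the 2 cell types. At 1 to 2 TPM it was -0.03 in ESC and -0.24 in NPC, and at 2 to 5 TPM it was -0.23 in ESC and 0.02 in NPC. HET and KO are compared with the same WT libraries.

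By edgeR no member passed the threshold in HET, while DESeq2 called some. In ESC the edgeR count was 0 (0.0333% of all tested transcripts were called). At an unadjusted p under 0.05 there were 37 members (18.6%), against 8.67% of all tested and 10.4% of shorter transcripts of equal CPM. DESeq2 called 15 (7.54%, against 3.52% of all tested) and limma 0. In NPC the edgeR count was 0 (0.00999% of all tested), with 29 (14.6%) at an unadjusted p under 0.05, against 7.90% of all tested and 11.8% of shorter transcripts of equal CPM. DESeq2 called 10 (5.03%, against 3.20%) and limma 0. Over both cell types the edgeR count was 0 (0.283% of all tested), with 41 (20.6%) at an unadjusted p under 0.05, against 11.7% and 15.1%. DESeq2 called 30 (15.1%, against 6.10%) and limma 1 (0.50%, against 0.19%). By direction the DESeq2 calls were 2 higher and 13 lower in ESC, 3 and 7 in NPC, and 7 and 23 over both cell types. The median SE of a member was 0.25 within a cell type and 0.18 over both.

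By edgeR few members differed in KO. In ESC 2 were higher and 3 lower than in WT (edgeR, adjusted p under 0.05), where 0.716% and 0.49% of all tested transcripts were called. In either direction that is 2.51% of members, 1.21% of all tested and 1.62% of shorter transcripts of equal CPM. In NPC the count was 0 (0.213% of all tested), with 48 (24.1%) at an unadjusted p under 0.05, against 12.7% of all tested and 22.4% of shorter transcripts of equal CPM. DESeq2 called 31 (15.6%, against 7.45% of all tested) and limma 3 (1.51%, against 0.97%). Over both cell types 7 were higher and 7 lower (1.59% and 1.73% of all tested), which is 7.04% of members, against 3.32% of all tested and 5.16% of shorter transcripts of equal CPM. Limma called 1 higher and 6 lower (3.52%, against 3.98% of all tested), and 4 of these 7 were among the 14 by edgeR. DESeq2 called 19 higher and 22 lower (20.6%, against 13.04% of all tested). Of the 170 members that reached 1 TPM in both cell types, edgeR called 2 higher and 6 lower over both cell types, and 0 higher and 3 lower in ESC. Their calls rested on many single libraries: the count over both cell types was 0 without WT ESC replicate 2, KO NPC replicate 1 or KO NPC replicate 2, and 1 to 3 without either KO ESC library or either WT NPC library. The ESC count was 0 or 1 when any library other than WT ESC replicate 1 was left out, where it was 6. It was also 0 by limma (19 at an unadjusted p under 0.05) and by edgeR on the ESC libraries alone (30), while DESeq2 called 28 (14.1%, against 9.14% of all tested).

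The 7 members higher in KO over both cell types had a median log2 fold change of 0.99 (0.89 to 1.96), and in HET the same members had a median of 0.43, with 6 of 7 above 0. The 7 lower had a median of -1.21 (-1.60 to -0.36), and -0.68 in HET, with all 7 below 0. Since both sets of values share the WT libraries, they are given side by side only.

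uc007wio.1, of 21627 bases, was lower in KO in both cell types. It had 75.4 and 59.0 CPM in WT ESC, 35.4 and 30.8 in HET ESC, and 33.9 and 26.3 in KO ESC. In NPC it had 51.3 and 94.6 in WT, 41.4 and 30.2 in HET, and 24.9 and 33.5 in KO. The log2 fold change of KO against WT over both cell types was -1.24 (SE 0.23, edgeR adjusted p = 0.0322), and HET stood at -1.02 (edgeR adjusted p = 0.117). All WT libraries lay above all HET and KO libraries, and HET and KO overlapped.

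uc009avz.1, of 10652 bases, had 43.8 and 46.3 CPM in WT ESC, 7.39 and 14.2 in HET ESC, and 10.7 and 7.74 in KO ESC. In KO against WT ESC its log2 fold change was -2.29 (SE 0.42, edgeR adjusted p = 0.0488). In NPC it had 67.8 and 36.5 CPM in WT, 63.4 and 47.9 in HET, and 33.3 and 22.4 in KO, so HET NPC overlapped WT while HET ESC did not. The difference of the HET effect between the cell types was not called (log2 2.16, SE 0.56, edgeR adjusted p = 0.728, and 0.00494 unadjusted). uc009aty.1, of 10556 bases, was higher in KO over both cell types, with a log2 fold change of 0.93 and an SE of 0.18 (edgeR adjusted p = 0.0364). It had 122 and 96.4 CPM in WT ESC, 162 and 122 in HET ESC, and 246 and 159 in KO ESC, and in NPC 75.2 and 71.0 in WT, 88.9 and 108 in HET, and 163 and 124 in KO. HET lay between WT and KO in mean in both cell types. uc009avz.1 and uc009aty.1 lie 237 and 176 rows past the nearest stretch that was left out, and 4 of the 14 members called in KO lay within 500 rows of a stretch, as did 37 of all 199.

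**Figure D5:**
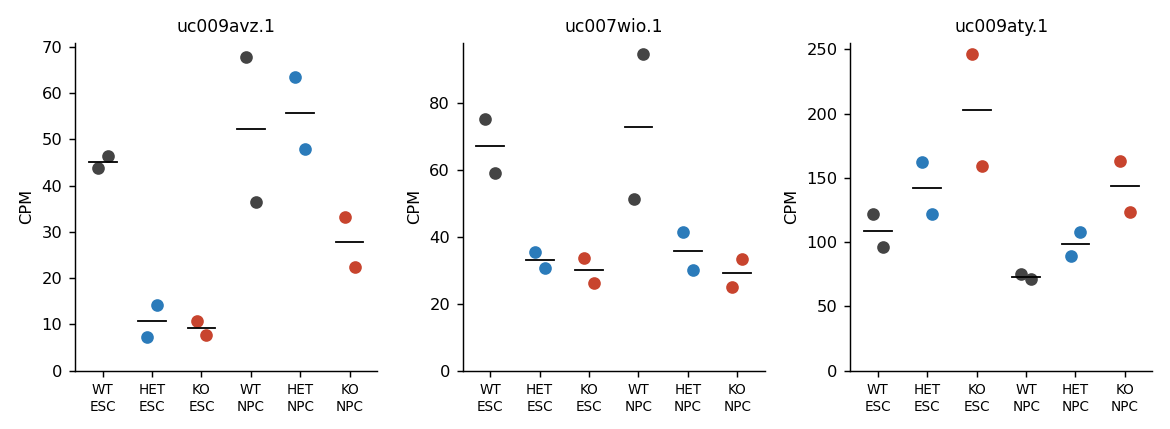
CPM of the 3 members named for KO against WT over both cell types, with points for libraries and lines for means of 2. uc007wio.1 is lower in every HET and KO library than in WT, uc009avz.1 is low in HET ESC but not in HET NPC, and uc009aty.1 steps up from WT to KO in both cell types.

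The 2 members higher in KO ESC were low in WT ESC. uc008piu.2 (10084 bases) had 2.61 and 2.07 CPM in WT ESC, 5.33 and 5.61 in HET ESC, and 7.85 and 9.22 in KO ESC, with a KO log2 fold change of 1.86 and an SE of 0.24 (edgeR adjusted p = 0.0258). uc008ezn.1 (10480 bases) had 4.15 and 2.90 CPM in WT ESC, 4.98 and 5.95 in HET ESC, and 10.1 and 14.1 in KO ESC, a log2 fold change of 1.78 and an SE of 0.26 (edgeR adjusted p = 0.0322). In NPC they stood above all their ESC libraries, at 12.03 to 20.9 CPM and at 132 to 207 CPM. Both averaged under 1 TPM in ESC (0.67 and 0.83) and met the TPM limit through NPC, so their higher level there is a description only. In NPC their log2 fold changes of KO against WT were 0.11 and 0.32 (edgeR adjusted p = 0.935 and 0.621). Both were also called over both cell types (edgeR adjusted p = 0.0233 and 0.0235), and the difference of their KO effect between the cell types was not called (edgeR adjusted p = 0.164 and 0.246). uc008huy.2 was lower in KO ESC, at 5.46 and 3.39 CPM against 13.1 and 24.0 in WT (log2 -2.06, SE 0.34, edgeR adjusted p = 0.0409). Its neighbour uc008huz.2 stood at 43.5 and 53.8 CPM in KO ESC against 31.6 and 30.9 in WT, and the sum of their run was 63.7 and 63.1 against 65.7 and 69.9.

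Whether the effect of Chd8 on a member differed between ESC and NPC was tested directly. The count by edgeR was 0 for HET and 0 for KO (0.00333% of all tested transcripts in each), with 15 members (7.54%) and 39 members (19.6%) at an unadjusted p under 0.05. Of all tested transcripts 5.22% and 9.16% were at that level. DESeq2 called 5 and 18 (2.51% and 9.05%, against 0.879% and 3.28% of all tested) and limma 0 and 0. In the stretches that were left out, 41 more long transcripts reached 1 TPM. With them, 25 of 240 were called in KO against WT over both cell types in place of 14 of 199, where 3.32% of all tested transcripts were called. The stretches had been picked for HET or KO shifts in these same data, so the added calls are no separate result.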

How the data were processed

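RNA-seq libraries from 12 samples (stranded, from total RNA depleted of ribosomal RNA, per the labels' protocols) were quantified by the authors. The submitters' processing notes list cutadapt 1.16, kallisto (no version) and build mm9. The deposited files hold, per the file headers, estimated counts (expected counts, with shared reads divided among transcripts) and TPM per transcript. Estimated counts were rounded; 252 transcripts in 99 sets with equal counts in every library (equal to 2 decimals, total above 10) were merged, none of them a member.

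edgeR 4.0.16 in R 4.3.3 fitted 1 quasi-likelihood model to 30021 transcripts (filterByExpr, minimum count 10, TMM, robust) with a mean per group and 6 residual degrees of freedom. Tests were two-sided with Benjamini-Hochberg adjustment over all transcripts, in each of 12 comparisons. An SE was taken as |log2 fold change|/√F. CPM values use TMM. DESeq2 1.42.0 and limma 3.58.1 (log2(TPM + 0.5)) were alternatives. The scripts were tested on simulated data.

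Samples were grouped by their labelled titles. Marker genes and Chd8 were not checked because no identifier matched a name table. Alternatives were other scalings, filters, limits and tests, and each library left out. Named transcripts needed an adjusted p under 0.05, a mean CPM of at least 5 and no overlap of the groups; the 2 largest rises and falls per comparison qualified. Members, lists and rules were chosen with earlier results of these data known.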

Additional observations from a re-analysis of the deposited data

How the results depend on the processing

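With DESeq2 size factors, a mean TPM limit of 2, the top 50 taken by TPM, or a ceiling on the TPM of shorter transcripts (added after seeing the data), every count of calls stayed within 1.5 times its value and every offset within the replicate SD. No result changed sign in a call. Replicate numbers did not pair the libraries (correlations of same-numbered libraries -0.122 to 0.121). With a replicate block the calls were 0 for KO in ESC and 4 for KO over both cell types, 3 of them among the 14, and other counts stayed within 1.5 times; uc007wio.1 had an adjusted p of 0.0583 (edgeR). DESeq2 called 15, 10 and 30 members for HET in ESC, in NPC and over both, 28, 31 and 41 for KO, and 5 and 18 for the HET and KO differences between cell types. Limma with a pseudocount of 0.5 called 0, 3 and 7 for KO in ESC, in NPC and over both and 1 for HET over both; with 1 it called 0, 4, 8 and 1. Without a low-count filter KO in ESC had 3 calls, and in ESC libraries alone 0. With only the members at 1 TPM or more in both cell types (added after seeing the data), KO had 3 calls in ESC and 8 over both. With the stretches, which had been picked for HET or KO shifts, kept in, the counts were 1, 1 and 2 for HET and 9, 2 and 25 for KO. From 15000 bases, with fewer members, NPC against ESC had 12 calls in WT, 11 in HET, 11 in KO and 19 over genotypes, KO had 1 in ESC and 4 over both, and the offset was 0.51 for NPC in WT, -0.17 for HET in NPC and -0.10 for KO in NPC. For NPC against ESC, the offset was 0.29 in WT and 0.29 over genotypes with shorter transcripts of 2000 bases and up, 0.50 in HET and 0.43 over genotypes at equal CPM, and 0.48 in WT, 0.59 in HET and 0.49 over genotypes with 1 member per run (added after seeing the data). With each library left out, calls for NPC against ESC ran 46 to 70 in WT, 50 to 74 in HET, 39 to 68 in KO and 101 to 110 over genotypes, and the offsets 0.32 to 0.47 in WT, 0.22 to 0.40 in KO 0.34 to 0.43 over genotypes, -0.12 to -0.06 for HET in ESC and -0.15 to -0.04 for HET in NPC. Calls ran 0 to 1 for HET in ESC and over both, 0 to 6 for KO in ESC, 0 to 2 for KO in NPC, 0 to 12 for KO over both and 0 to 1 for the HET difference. The cause of these shifts was not tested. Median SEs were 0.25 for a genotype comparison within a cell type; the part of depth in them was not tested.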
